A study of Talpa occidentalis and Mus musculus with 35 samples.

Results

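Gene models for the enzymes that make, interconvert, reduce and conjugate steroids, and for the START-domain lipid carriers related to STAR, were taken from the annotation of the genome of the Iberian mole (Talpa occidentalis), assembly talOcc3. A gene line was taken when its symbol, without a copy or low-confidence suffix, belonged to the HSD17B, HSD3B, HSD11B, SRD5A, AKR1, UGT, SULT or STARD series, or was STAR or STS. This rule took 60 of 23336 gene lines, under 49 symbols and on 29 scaffolds. A locus below is 1 gene line with its single transcript model, and the best locus of a symbol is the one with the highest score. Aligned bases are counted from the first to the last base of the aligned interval, in the reference record or in the model. Gaps inside the interval are therefore included.

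The series sequenced RNA of gonads from moles and mice in 35 libraries and 16 groups, 19 libraries from moles and 16 from mice. In wild-type moles, embryonic day 15 gave 2 libraries of the ovotestis and 2 of the testis. At postnatal day 7 there were 3 libraries each of the ovarian part and the testicular part of the ovotestis and of the testis, and in adult moles 2 of each. The mouse groups of 2 libraries were CD1 wild-type ovary and testis at embryonic day 13.5, at postnatal day 7 and at 10 weeks, and, at embryonic day 13.5, the ovary of an Fgf9 mutant and of B6 wild type. The strain labels of the last 4 libraries run from C57BL/6 to C57BL/9, and no source used here gives the kind of Fgf9 allele or any pooling of animals. The annotation carried positions, names and a score for gene models and no value for any library, so levels in these groups were not analysed here and library depth is unknown. A set of gene models has no replicates, so counts and medians below are descriptions and carry no test.

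As background, steroid synthesis begins when STAR brings cholesterol to the inner mitochondrial membrane, where CYP11A1 cuts its side chain. HSD3B enzymes then turn pregnenolone and related steroids into progesterone and its relatives, HSD17B enzymes switch steroids between weak keto and potent hydroxy forms, and SRD5A enzymes reduce testosterone to dihydrotestosterone. In target tissues and the liver, AKR1 reductases, sulfotransferases (SULT) and glucuronosyltransferases (UGT) inactivate steroids and many foreign compounds, and STS takes the sulfate off again. SULT, UGT and AKR1C genes commonly lie in tandem arrays whose size differs between mammals. Female moles carry ovotestes, whose testicular part makes androgens.

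The 60 loci were 13 UGT, 12 HSD17B, 10 SULT, 9 STAR and STARD, 7 AKR1, 3 HSD11B, 3 SRD5A, 2 HSD3B and 1 STS. The mouse annotation GENCODE M21 names 91 protein-coding genes by the same rule. The difference lay in the conjugating and multi-gene families. There were 10 SULT loci in the mole against 21 genes in the mouse, 13 against 22 for UGT, 7 against 15 for AKR1, and 2 against 7 for HSD3B. In the other families the counts lay within 1 of each other, with 9 mole loci against 10 mouse genes for STAR and STARD, 12 against 11 for HSD17B, 3 against 2 for HSD11B and 3 against 3 for SRD5A. The STS locus of the mole had no mouse gene of that name in M21.

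**Figure D1:**
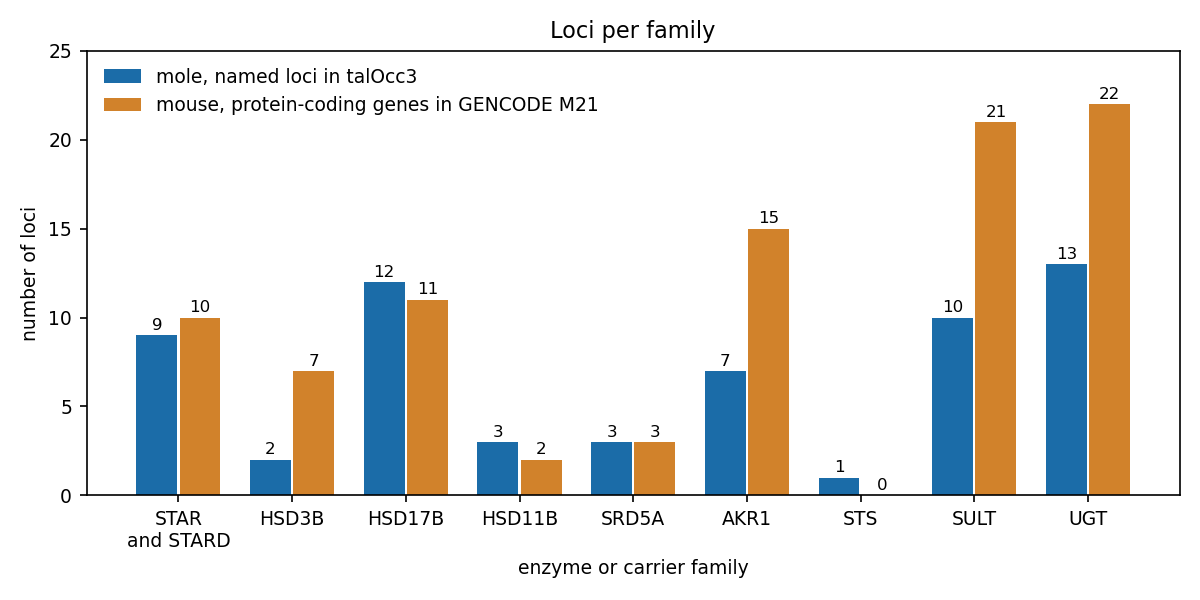
Number of loci per family (y axis) for the mole annotation talOcc3 (blue, left bar of each pair) and for protein-coding genes of the mouse annotation GENCODE M21 (orange, right bar), with the count above each bar. The bars differ most for SULT (10 and 21), UGT (13 and 22), AKR1 (7 and 15) and HSD3B (2 and 7).

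Within those families the difference was uneven. SULT1 counted 9 mole loci against 6 mouse genes, and its SULT1C branch 5 against 2, whereas SULT2A, the branch that sulfates dehydroepiandrosterone and bile acids, had 0 mole loci against 8 mouse genes. Both mole counts of SULT1 and SULT1C include SULT1C4 copy 2. In exon lengths that locus was closest to mouse Sult3a1 and Sult3a2, with 4 of its 5 equal. UGT2B counted 7 against 7, UGT2A 1 against 3, UGT1A 3 against 9 and UGT3A 1 against 2. The mole UGT2B loci include single exons of 220, 287 and 311 bases (UGT2B10, UGT2B11 and UGT2B7). The equal UGT2B counts are therefore not equal numbers of full gene models. AKR1C counted 3 against 8 and AKR1B 2 against 4. Counting loci by name depends on the reference symbol given to each model, so a gene under another name does not enter.

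A list of 76 human symbols of these families was compared with the file. Of these, 40 had 1 locus, 9 had several and 27 had no locus under that symbol in the lines analysed here. The 27 were mostly conjugating enzymes and reductases, among them SULT2A1, UGT1A1, UGT2B15, AKR1C3 and AKR1C4, and they included HSD17B6 and HSD17B8. Some of the 27, such as SULT1A2, AKR1B15 and UGT2B28, are not names of mouse genes either. A later mole assembly, MPIMG_talOcc4v2.1, names 3 of the 27, which are HSD17B8, STARD5 and SULT4A1. Conversely, 18 of the 49 member symbols are not used as names there, 8 of these being UGT symbols. No share over all symbols is given here for this count or for the 27 of 76, so neither can be read as high or low.

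STAR itself, the carrier that limits the start of steroid synthesis, was a single model on scaffold 13 from base 29292820 to 29297673 on the minus strand, between ASH2L and LSM1. Its 7 coding exons measured 64, 114, 128, 159, 185, 94 and 114 bases, against 64, 111, 128, 159, 185, 94 and 114 bases in the mouse Star gene. The mole model was thus 858 bases long against 855 in the mouse, with 6 of 7 exons of equal length, and the second exon carried the 3 extra bases. It aligned to bases 265 to 1120 of its reference record with a score of 1091.

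STARD3, a sterol carrier of endosomes, lay on scaffold 28 from base 7539472 to 7550118 on the plus strand, in 16 exons against 14 in the mouse. It was one of the long models, with 2046 coding bases against 1341 in the mouse, and only 66.6% of it aligned to the reference record. The other 7 carriers were STARD4, STARD6, STARD7, STARD8, STARD9, STARD10 and STARD13. STARD4, a cytosolic sterol carrier, had 5 exons and 627 coding bases against 6 exons and 675 bases in the mouse. STARD9, a kinesin with a START domain, had the longest reference interval of the best loci (14126 bases) and 34 exons against 32. STARD8 and STARD13, larger proteins with a START domain, followed it with 3234 and 3174 aligned bases. STARD9 also had the lowest score per aligned reference base of the 58 loci with intervals in bases (0.275), and STARD10, a phospholipid carrier, had the highest (1.45).

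HSD3B1, whose product in human makes progesterone and androstenedione in placenta and skin, was a single locus on scaffold 21 from base 41013417 to 41018234 on the plus strand, between HAO2 and PHGDH. The same interval of the mouse genome holds 6 Hsd3b genes. In the later mole assembly it holds 2 protein-coding genes, neither of them named as a member. The 3 exons of the HSD3B1 model, of 145, 165 and 812 bases, were each equal in length to those of mouse Hsd3b1. The other 5 mouse Hsd3b genes of the interval held the same 3 lengths. The whole model of 1122 bases aligned, to bases 110 to 1231 of the reference, but its score of 800 was only 0.713 per aligned base, against a median of 1.08 over the member loci and 1.22 over all loci. HSD3B7, an enzyme of bile acid synthesis, lay on scaffold 17 from base 36208866 to 36212976 on the minus strand, inside an intron of a ZNF668 model of the opposite strand. It had 1791 coding bases against 1110 in the mouse, 8 exons against 6, and 62.5% of the model aligned.

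The HSD17B family had 12 loci under 10 symbols. HSD17B3, the testicular enzyme that makes testosterone from androstenedione, lay on scaffold 25 from base 2428112 to 2472917 on the minus strand, between CHCHD2 and SLC35D2. It had 11 exons, as in the mouse, and 864 coding bases against 918. Exons 2 to 9 were equal in length to the mouse exons, while the first had 16 bases against 142 and the last 180 against 111. HSD17B1, which makes estradiol from estrone in granulosa cells, lay on scaffold 28 from base 9716950 to 9717889 on the plus strand, between NAGLU and COASY. It had 4 exons of 97, 168, 180 and 98 bases against 6 of 97, 168, 180, 94, 175 and 321 bases in the mouse, so the first 3 matched and the end of the mouse gene had no counterpart in the model. At 543 against 1035 bases it had the lowest percent of the mouse length of the 37 models compared, 52.5%. HSD17B2, which oxidises estradiol and testosterone back to their keto forms, had 5 exons in both species and 951 coding bases against 1146, on scaffold 26 from base 10840988 to 10862589 on the minus strand.

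Among the HSD17B genes with other main roles, HSD17B4, a peroxisomal enzyme of fatty acid oxidation, lay on scaffold 3 from base 70042193 to 70104797 on the minus strand. It had 24 exons in both species, 19 of them of equal length, and 2190 coding bases against 2208. HSD17B12, an enzyme of fatty acid elongation on the minus strand of scaffold 18 from base 14038877 to 14166668, had 11 exons in both species with 10 of equal length, and 942 coding bases against 939. HSD17B7, of cholesterol synthesis, had 1392 coding bases against 1005, on the plus strand of scaffold 5 from base 24567461 to 24585566. HSD17B10, a mitochondrial dehydrogenase, had 1083 against 786, on the plus strand of scaffold 50 from base 1805511 to 1809767. HSD17B11 and HSD17B13, lipid droplet proteins, lay next to each other on the plus strand of scaffold 10, from base 11267174 to 11325767 with 7.90 kb between them, and the mouse pair also lies together between Nudt9 and Klhl8, as the mole pair does. HSD17B11 had 834 coding bases against 897, with 5 of 7 exons of equal length. HSD17B13 had 903 against 915, but 9 exons against 7 and 1 of equal length, and its score per aligned base was 0.482. Between NUDT9 and KLHL8 the later mole assembly holds 1 protein-coding gene and 4 pseudogenes, and HSD17B11 is the only member named there. Whether the HSD17B13 model is an intact gene was not tested. HSD17B14 had 4 exons against 9 and 537 coding bases against 822. It ran from base 735 to 1644 of scaffold 10641, where no other locus was annotated, and 242 bases of its reference were aligned.

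All 3 SRD5A models were short, had 1 exon fewer than the mouse genes, and lacked an exon the size of the mouse first exon. The last trait is not particular to SRD5A. In most of the other members compared, such as HSD11B2, HSD17B2 and STARD4, the mouse first exon also had no partner of equal length. No share over all symbols is given here for it. SRD5A1, the isoenzyme found in liver and skin, lay on scaffold 8 from base 1471635 to 1476797 on the plus strand, inside an intron of an NSUN2 model of the opposite strand. Its exons of 169, 102, 151 and 64 bases stood against 281, 167, 102, 151 and 67 bases in the mouse, where the last count includes the 3 bases of the stop codon. SRD5A2, the isoenzyme of the male genital tract, lay on scaffold 9 from base 16863608 to 16871500 on the minus strand, between XDH and MEMO1, with exons of 100, 102, 151 and 124 bases against 281, 164, 102, 151 and 67. SRD5A3, which acts in protein glycosylation, lay on scaffold 10 from base 34618152 to 34630498 on the minus strand, with exons of 11, 143, 198, 135 and 260 bases against 221, 143, 36, 198, 135 and 260. In SRD5A3 an exon of 11 bases thus stood before the matched exon of 143 bases. By order, the mouse exon without a place in that model was the one of 36 bases. Coding lengths were 63.3%, 62.4% and 75.2% of the mouse length. The aligned part of SRD5A1 began at base 1049 of its reference record and that of SRD5A2 at base 421. What lies in the genome sequence before these models was not tested.

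**Figure D2:**
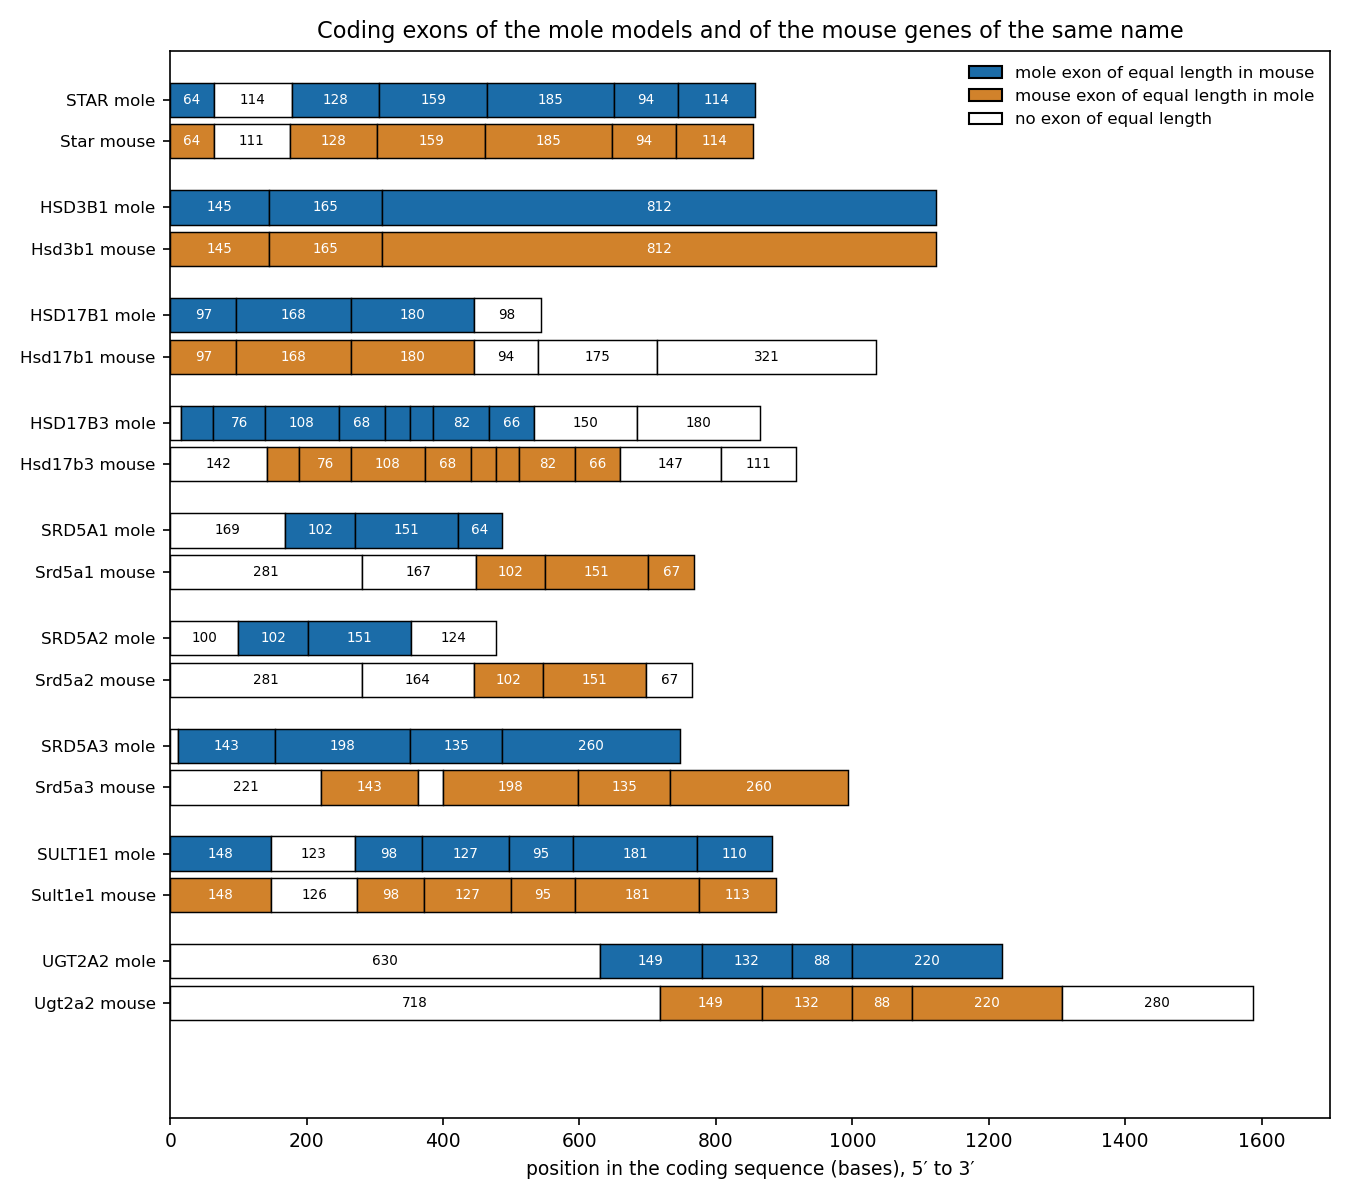
Coding exons drawn to scale in bases from 5′ (left) to 3′ (right) for 9 mole models (upper bar of each pair, blue) and the mouse genes of the same name (lower bar, orange). Filled boxes have a partner of equal length in the same order, allowing a last exon without its stop codon, and white boxes have none. HSD3B1 and SRD5A3 keep their last exon (812 and 260 bases). None of the 3 SRD5A models has an exon of the length of the first mouse exon (281, 281 and 221 bases). The same holds for HSD17B3 and UGT2A2 (142 and 718 bases in the mouse).

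Of the aldo-keto reductases, AKR1D1, the 5-beta-reductase of bile acid and steroid catabolism, lay on scaffold 5 from base 64641069 to 64669972 on the plus strand, between CREB3L2 and TRIM24. It had 978 coding bases and 9 exons in both species, 8 of them of equal length. AKR1B1, aldose reductase, and its relative AKR1B10 lay 43.9 kb apart on scaffold 5 between SLC35B4 and BPGM, where the mouse has 4 Akr1b genes. AKR1B10 matched its mouse namesake in all 10 exons and in its 951 coding bases, and the exon lengths were also those of the other 3 mouse Akr1b genes. AKR1B1 shared 8 of its 10 exon lengths with each of the 4, its second exon measuring 331 bases. AKR1A1, an aldehyde reductase, had 10 exons against 8 and 1266 coding bases against 978.

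The AKR1C enzymes reduce keto groups of steroids in human and mouse. In the mole file they formed a run of 3 loci on scaffold 14 from base 32858423 to 32929247, with UCN3 as the named neighbour on one side and MCTS1 on the other. Only the first, AKR1C1 on the minus strand, was a full model, with 9 exons, 975 coding bases and a score of 746 over bases 205 to 1102 of the reference. In length, 8 of its exons equalled those of all 8 mouse Akr1c genes. AKR1C2, on the plus strand from base 32890790 to 32890927, was a single exon of 138 bases with 126 aligned bases, the smallest reference interval of any best locus. AKR1C1 copy 2, also on the plus strand, had 5 exons, 395 aligned bases and 41.6% of the score of AKR1C1. Between UCN3 and KLF6 the mole assembly spans 985 kb against 1920.0 kb in the mouse, where 8 Akr1c genes and Akr1e1 lie. The later mole assembly holds 3 protein-coding genes and 2 pseudogenes in the interval.

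HSD11B2, which inactivates cortisol in kidney, was a single locus of 5 exons on scaffold 26 from base 22504298 to 22505868 on the minus strand, between ATP6V0D1 and ZDHHC1, with 1050 coding bases against 1161 in the mouse. HSD11B1, which works in the opposite direction in liver and fat, had a pair of loci on the plus strand of scaffold 35, with 14.7 kb between them and LAMB3 and C1orf74 outside. The best locus ran from base 17051269 to 17053613 with 5 exons and aligned to bases 67 to 678 of its reference. The other had 4 exons and aligned to bases 673 to 963 of a second reference record, so the intervals overlapped by 6 bases if both records are numbered alike, which could not be checked here. Of their exons 1 had the same length, and the mouse has a single Hsd11b1 gene of 6 exons in the interval. The later mole assembly also names HSD11B1 there. Whether the pair is 1 gene split between models or a duplicated gene was not tested.

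STS, steroid sulfatase, lay on scaffold 24 from base 32414375 to 32446038 on the minus strand, between PNPLA4 and PUDP. It had 9 exons and 2062 coding bases, which is not a multiple of 3. Only 59.4% of the model aligned, to bases 399 to 1623 of the reference, and the score per aligned base was 0.708.

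Counted over the 37 member symbols that also name a mouse gene, coding length had a median of 99.2% of the mouse length, against 99.8% over all 14325 symbols named in both. It was below 80% in 8 members, 21.6%, against 17.8% of all symbols. The 8 were HSD17B1, HSD17B14, all 3 SRD5A genes and the 3 UGT genes compared (UGT1A8, UGT2A2 and UGT3A2). It was within 10% of the mouse in 16 members, 43.2%, against 51.7% of all symbols. It exceeded 120% in another 8, 21.6%, against 15.2% of all symbols, among them STARD7 at 176%, HSD3B7 at 161% and STARD3 at 153%. Against the longest mouse coding sequence in place of the principal transcript, STARD7 stood at 161% and STARD10 at 99.2% in place of 124%. The exon number equalled that of the mouse in 13 members, 35.1%, against 39.9% of all symbols. It was higher in 13, 35.1%, against 24.9%, and lower in 11, 29.7%, against 35.2%. The median share of mole exons with a mouse exon of equal length was 71.4% in the members and 70.6% over all symbols.

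**Figure D3:**
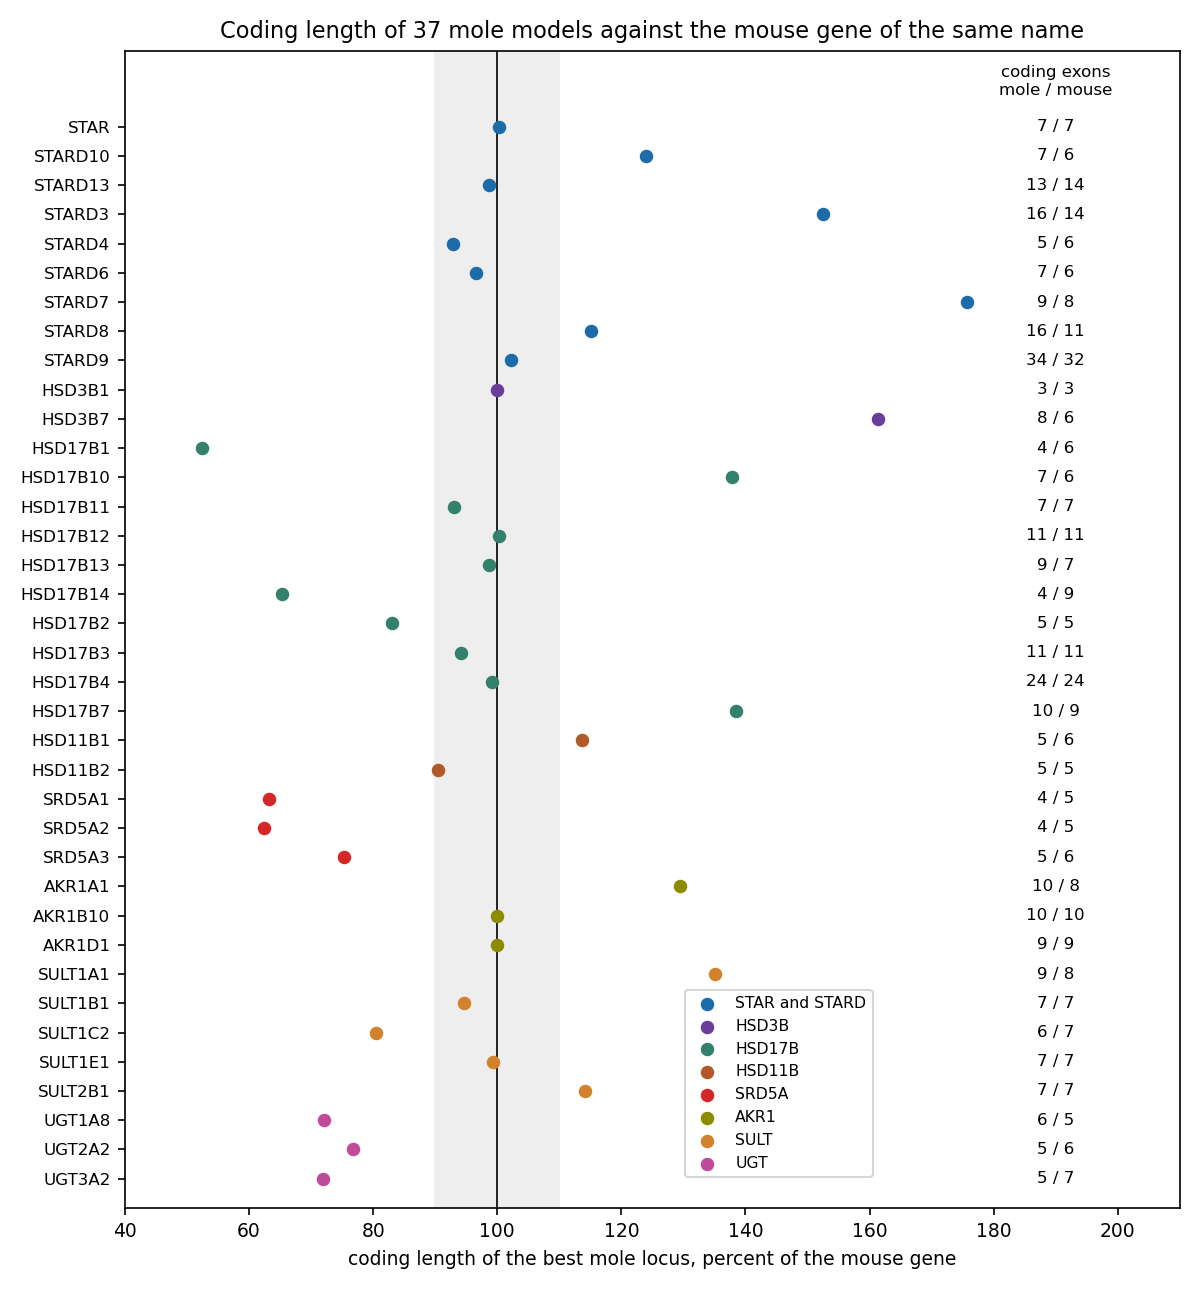
Coding length of the best mole locus as a percent of the mouse gene of the same name (x axis, line at 100%, grey band from 90% to 110%) for 37 symbols, coloured by family, with mole and mouse exon numbers at the right. HSD17B1 (52.5%), the 3 SRD5A genes (62.4% to 75.2%) and the 3 UGT genes (71.9% to 76.8%) lie at the left, and STARD7 (176%) at the right.

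The sulfotransferases were 10 loci, of which 7 lay in 3 runs. SULT1E1, the estrogen sulfotransferase, opened the largest, on scaffold 10 from base 25515757 to 25525804 on the plus strand, with 7 exons and 882 coding bases against 888 in the mouse. Its exons of 148, 123, 98, 127, 95, 181 and 110 bases matched the mouse gene in 6 of 7 when the stop codon is set aside. SULT1B1 copy 2 and SULT1B1, named for an enzyme of thyroid hormone and phenol sulfation, followed at 16.6 and a further 28.9 kb, and the run ended at base 25598820. In the mouse interval Sult1d1 lies between Sult1e1 and Sult1b1, in the place SULT1B1 copy 2 has in the mole. SULT1B1 copy 2 shared 6 of its 7 exon lengths with mouse Sult1a1, Sult1c2, Sult1d1 and Sult1e1, and 5 with the mole SULT1B1 locus, so exon lengths alone did not single out a mouse counterpart.

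The other SULT runs were pairs of the SULT1C branch. SULT1C3 and SULT1C2 lay on the plus strand of scaffold 68 with 46.8 kb between them, on a scaffold whose last annotated base is 327948. SULT1C3 copy 2 and SULT1C4 lay on opposite strands of scaffold 9 with 32.3 kb between them, between SPTBN1 and GCC2. SULT1C4 copy 2 stood alone on scaffold 7, with RWDD1 as the nearest named locus on the left and TRAPPC3L copy 2 on the right. RSPH4A lay 6 loci to the right. Mouse Sult3a1 and Sult3a2 lie beside Rsph4a, but on the side away from Rwdd1. They are thus outside the mouse stretch between Rwdd1 and Rsph4a, where the mole locus has its place. They were the mouse SULT genes with the most exons of equal length to SULT1C4 copy 2, 4 of its 5. SULT2B1, which sulfates cholesterol and pregnenolone, lay on scaffold 36 from base 16052431 to 16071414 on the plus strand, with 7 exons in both species and 1161 coding bases against 1017. SULT1A1, a phenol sulfotransferase, had 9 exons against 8 and 1212 coding bases against 897.

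A run of 4 successive exons of 98, 127, 95 and 181 bases occurred in 7 of the 10 mole SULT loci and in 0 of the 23326 other mole loci. The mouse annotation has it in 6 of 21 SULT genes and in no other gene. The run was chosen with the lengths of these models known, so the counts describe it and do not test it. A run of 128, 159, 185 and 94 bases taken from STAR was likewise in no other mole locus. SULT1C4 had the first 3 of these lengths and then a last exon of 261 bases, SULT2B1 had 127, 95 and 181, and SULT1C4 copy 2 had 127 and 95. No SULT locus had a single exon, and all 10 coding lengths were multiples of 3.

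The glucuronosyltransferases were the most fragmented family. Of the 13 loci, 6 had a single exon, against 3 of the other 47 members and 24.7% of all loci in the file. On scaffolds whose last annotated base is under 1 Mb lay 7, against 3 of the other 47 and 12.5% of all loci. In 6 of 13 the coding bases divided by 3 without remainder, against 45 of the other 47 and 87.8% of all loci. The exonerate method is named for 7 of the 13 models, against 2 of the other 47 and 25.5% of all loci. The median UGT model had 2 exons against 7 in the other members. Model method, scaffold size and exon number thus all differed between UGT and the other members. They were not compared locus by locus within the family, and the part of method and scaffold size in exon number was not tested.

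UGT2B17, the symbol of the human enzyme that conjugates testosterone and dihydrotestosterone, had the most loci of any member, 4. The best locus lay on scaffold 10 from base 25875007 to 25896730 on the plus strand, with 6 exons of 730, 149, 132, 88, 220 and 271 bases and a score of 1534 over bases 38 to 1623 of the reference. Mouse Ugt2b34 had the most exons of equal length, 5 of the 6. UGT2B17 copy 2, the neighbour at 16.6 kb, also had 6 exons, 109, 576, 149, 132, 88 and 220 bases, but spread over 169 kb with its longest intron at 84.3 kb. UGT2A2, from base 25642074 to 25667487 on the same strand, had 5 exons of 630, 149, 132, 88 and 220 bases against 718, 149, 132, 88, 220 and 280 bases in the mouse, and its 1219 aligned bases took in the whole model. These 3 formed 1 run, from base 25642074 to 25896730, with HSPA14 copy 2 as the nearest named locus on the right.

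The SULT1E1 and UGT2A2 runs lay 43.3 kb apart with no other locus between, so that 3 SULT and 3 UGT loci stood in 1 block of 381 kb, all on the plus strand. CSN2, a casein gene, was the nearest named locus on the SULT side. Between CSN2 and YTHDC1 the mole assembly spans 549 kb against 858 kb in the mouse. The mouse interval holds 3 SULT genes in the same place and 10 UGT genes against 3. In the later mole assembly the interval holds 12 protein-coding genes and 6 pseudogenes, of which SULT1B1 is the only one named as a member.

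**Figure D4:**
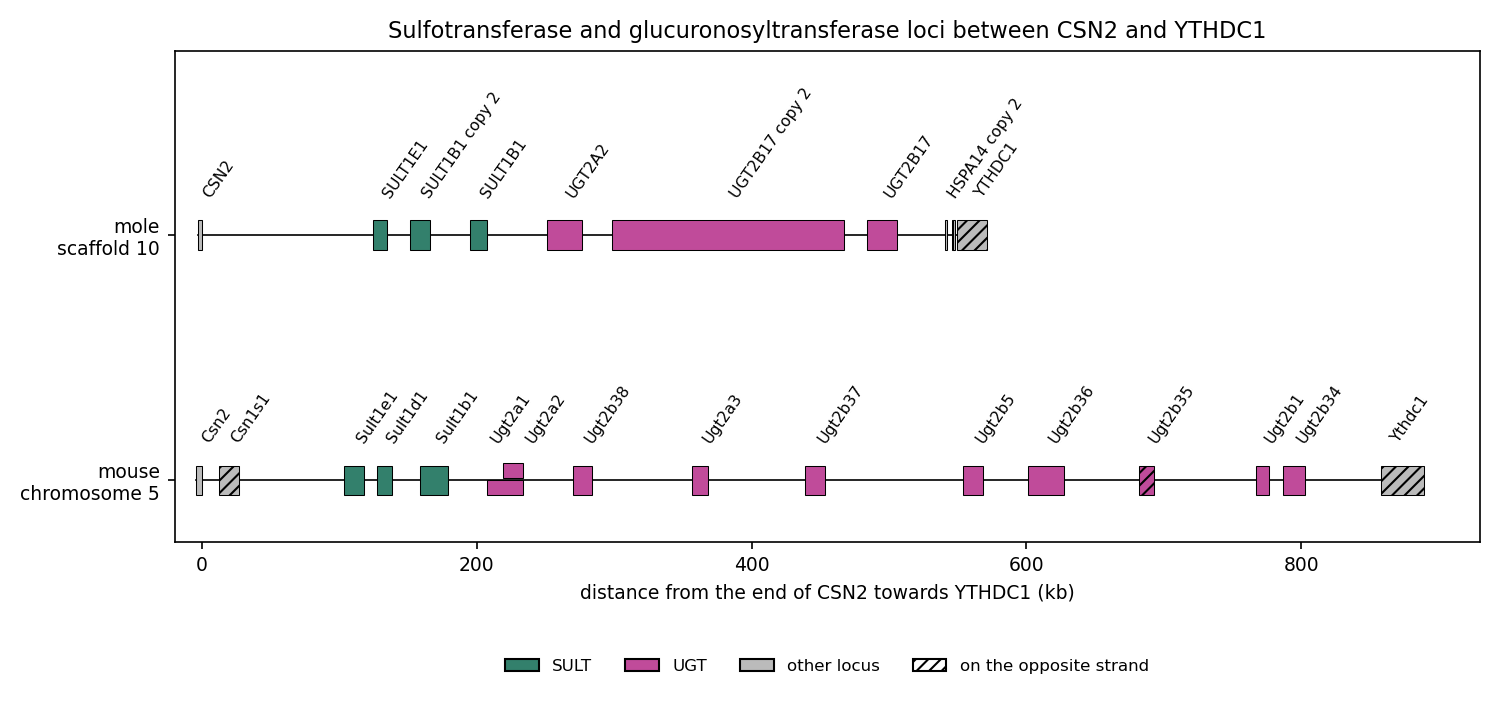
Loci between CSN2 and YTHDC1 in the mole (upper line, scaffold 10) and in the mouse (lower line, chromosome 5), in kb from the end of CSN2, with SULT loci green, UGT loci magenta and others grey; hatched loci lie on the opposite strand. Both lines hold 3 SULT loci next to the casein end, followed by 3 UGT loci in the mole and 10 in the mouse, and UGT2B17 copy 2 covers 169 kb.

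The fourth run of at least 3 loci lay on scaffold 239 from base 4618 to 54931, all on the minus strand and with no other locus on the scaffold. It held UGT2B17 copy 3, UGT2B10 (from base 16834 to 17053), UGT2B11 (from base 52136 to 52422) and UGT2B7 (from base 54621 to 54931). UGT2B17 copy 3 had 2 exons of 751 and 148 bases and aligned to bases 38 to 916 of the UGT2B17 reference, the start of it. UGT2B10 was a single exon of 220 bases, the length of an exon present in all 22 mouse UGT genes, though 232 mole loci outside the family also had an exon of that length. UGT2B11 and UGT2B7 were single exons of 287 and 311 bases, aligned to bases 4 to 247 and 1133 to 1385 of their references. Which of these models are separate mole genes was not tested.

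UGT1A8, of the branch that conjugates estrogens and bilirubin, lay on scaffold 186 from base 8808 to 57473 on the plus strand, with 6 exons and 1149 coding bases against 5 exons and 1593 bases in the mouse. In the mouse 9 Ugt1a genes share their last 4 exons, and UGT1A8 matched all 9 equally, in 4 exons. Its 5 introns included one of 45.6 kb. UGT1A3 had a pair of single-exon loci, each the only locus of its scaffold, 864 bases on the minus strand of scaffold 1361 from base 5087 to 5950, and 612 bases on the plus strand of scaffold 2309 from base 5458 to 6069. With HSD17B14 they were the only members on scaffolds whose last annotated base is below 10000. UGT3A2 had 5 exons against 7 and 71.9% of the mouse coding length, and UGT8, which makes galactosylceramide in myelin, had 6 exons and 1460 coding bases.

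A run of 3 exons of 132, 88 and 220 bases marked 4 of 13 mole UGT loci (UGT2A2, UGT2B17, UGT2B17 copy 2 and UGT1A8), against 0 of 23323 other loci. In the mouse, 19 of 22 UGT genes have it and no other gene does. With the exon of 149 bases before them it marked the 3 loci of the scaffold 10 run and 10 mouse genes, all of them Ugt2a or Ugt2b genes. In the same way exons of 168, 117, 78 and 123 bases marked AKR1C1, AKR1B10 and AKR1D1 among the 7 AKR1 loci and 0 of 23329 other loci, and 13 of 15 AKR1 genes and Akr1cl in the mouse. These runs too were chosen with the lengths known, so their counts are descriptions.

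Exon lengths were also shared between members of different names. Of 1176 pairs of best loci, 36 shared at least 3 exon lengths in order, and 31 of these pairs were within a family. SULT loci alone made up 20 of the 36. No share over pairs of other loci in the file is given here, so the counts only describe the members. HSD11B2 and HSD17B2, both of which oxidise the hydroxyl group of a potent steroid, shared 213, 186 and 138 bases, 3 of 5 exons each, as they do in the mouse, and no other locus in the file had that run. The other 4 pairs between families joined AKR1 genes with STARD9, whose 34 exons give many lengths to match. HSD17B3 and HSD17B12 shared 7 of 11 exon lengths, against 6 between the mouse genes. STARD8 and STARD13 shared 8, against 8 in the mouse.

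Several loci under 1 symbol were found for 9 of 49 member symbols, 18.4%, against 14.6% of all 16196 symbols in the file. UGT2B17 had 4 loci, and HSD17B10, HSD17B12, HSD11B1, AKR1C1, SULT1B1, SULT1C3, SULT1C4 and UGT1A3 had 2 each. In 4 symbols, AKR1C1, HSD11B1, SULT1B1 and UGT2B17, 2 or more loci were in tandem, which is 8.16% of the members against 8.33% of all symbols. Of the 11 loci beyond the best, 7 lay on another scaffold. A single exon was seen in 4 of the 11, against 54.5% of such loci in the whole file, and in 9 of all 60 members, 15.0%, against 24.7% of all loci. On scaffolds of at least 1 Mb alone the share of the members was 8%.

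**Figure D5:**
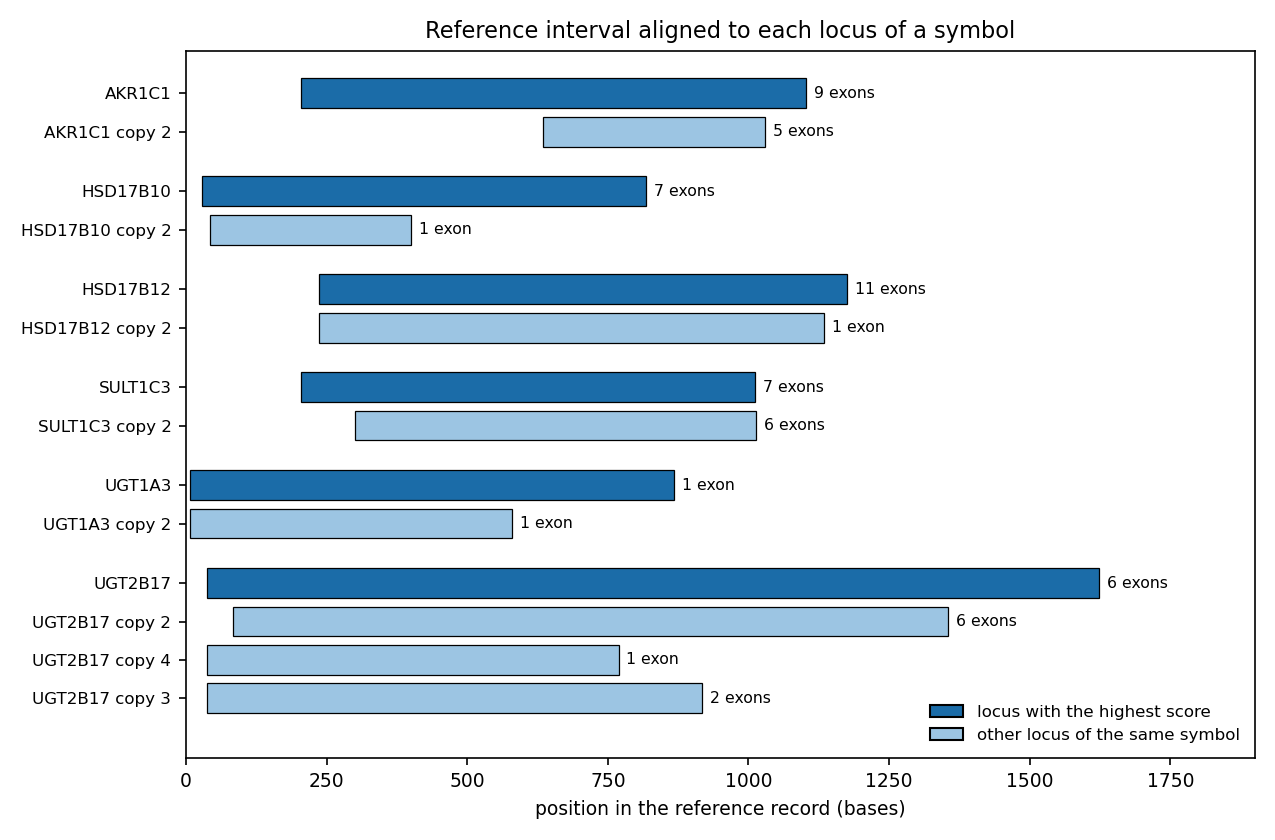
Interval of the reference record (x axis, bases) aligned to each locus of the 6 symbols whose loci align to the same record, with the best locus dark, the others light, and the exon number at the right of each bar. Every light bar lies inside the dark bar of its symbol apart from 2 bases of SULT1C3 copy 2, and the copies of HSD17B10 and HSD17B12 have 1 exon against 7 and 11.

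In 8 of the 11 the same reference record was aligned as for the best locus, and in each of the 8 at least 99.7% of the interval was already covered by the best locus. Their scores were 28.5% to 93.9% of the highest, with a median of 51.6%. No share over the whole file is given here for the same record, the covered interval or a place on another scaffold. These counts therefore only describe the 11 loci. The best locus is itself chosen by the highest score. HSD17B12 copy 2 was a single exon of 927 bases on scaffold 16 from base 18753771 to 18754697 on the minus strand, between SCG3 and DMXL2. It aligned to bases 236 to 1134 of the reference, against 236 to 1174 for the 11-exon locus, and had 91.1% of its score. HSD17B10 copy 2 was a single exon of 377 bases on scaffold 44 from base 518057 to 518433, with 28.5% of the score of the 7-exon locus. UGT2B17 copy 4 was a single exon of 726 bases on scaffold 16 from base 39620848 to 39621573, aligned to bases 38 to 768. That is about the extent of the 730-base first exon of UGT2B17. SULT1C3 copy 2, in contrast, had 6 exons, shared 5 exon lengths with SULT1C3 and had 93.9% of its score. Whether any of these copies is transcribed was not tested.

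For 2 SULT loci, SULT1B1 copy 2 and SULT1C4 copy 2, about 3 bases of model fell on 1 unit of the reference interval, as in an interval counted in amino acids, and their scores could not be set beside those of their best loci. The unit was read from this ratio alone. Such intervals made up 4.11% of all loci with one.

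In all, 23 of the 60 loci stood in 9 tandem runs, taken as loci of 1 family with at most 10 other loci between neighbours. No such share over other gene families is given here, so the count only describes the members. For tandem loci of 1 symbol the members stood at 8.16% against 8.33% of all symbols. None of the 9 runs held a locus of another family inside, 6 were on a single strand, and 4 held at least 3 loci. Of 30 member symbols named once in both species and with a neighbour on each side, 28 kept both neighbours in the mouse, 93.3%, against 89.1% of all such genes. HSD17B4 and SULT2B1 kept 1. Against the later mole assembly 24 of 26 kept both, 92.3%, against 93.4% of all genes, and STARD8 and STS kept 1.

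The other genes of the pathway were listed by role, 41 in all, and 39 had a locus. CYP11A1, the side-chain cleavage enzyme, and CYP19A1, aromatase, had 1 locus each with 99.1% and 98.2% of the mouse coding length, and both had 9 exons. CYP17A1, which makes androgen precursors, had 3 loci, the best at 101% of the mouse length. UGDH, which makes the sugar donor for glucuronidation, also had 3 loci, and CYB5A and NPC1 had 2 each. Several loci were thus found for 4 of the 39, against 14.6% of all symbols in the file. PAPSS1 and PAPSS2, which make the sulfate donor, had 1 each at 96.6% and 102%. The receptors for progesterone and glucocorticoid (PGR and NR3C1) had 1 locus each at 36.4% and 54.5% of the mouse length. Not all receptors were that short, with ESR1 at 78.1%, ESR2 at 96.2% and NR3C2 at 109%. Of all symbols named in both species, 17.8% lay below 80%. CYP11B1 and CYP11B2, of the last steps of cortisol and aldosterone synthesis, had no locus under those symbols in the lines analysed here.

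By family, the median score per aligned reference base was highest for SRD5A (1.30) and for STAR and STARD (1.27), and lowest for STS (0.708), HSD11B (0.877) and UGT (0.918). The value was 1.13 for AKR1, 1.12 for SULT, 1.11 for HSD17B and 0.998 for HSD3B. Each family median except those of SRD5A and of STAR and STARD lay below the 1.22 of all loci. Short models could still score well per base, as SRD5A2 (1.30 over 349 aligned bases) and SRD5A3 (1.33 over 740) show, and SRD5A1 had 0.535 over 486. The divisor is the whole reference interval with any gaps, which in UGT1A8 measured 1563 bases against 1116 in the model. No source used here gives what the score counts.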

How the data were processed

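The labels describe polyadenylated RNA of gonads extracted with an RNeasy kit, and the aligner STAR 2.6.1d and the build mm9 are listed in the submitters' processing notes without a role. The annotation of talOcc3 holds 1-based positions and, on each transcript model, a score and a reference interval, all deposited by the authors; no source used here tells how its EVM, ALN and exonerate models were predicted. The number of per-sample value columns left unused was 0. Gene lines were joined to coding exons with pandas 2.3.3, numpy 2.4.6 and scipy 1.17.1 in Python 3.11.15. A reference interval was read in bases where 0.5 to 1.6 model bases fell on 1 unit and taken as amino acids at 2.2 to 3.8. The mouse side was GENCODE M21 (GRCm38), by the APPRIS principal transcript of each protein-coding gene with its stop codon. Exons were called equal at the same length, a last exon also without its stop codon, since 350 of 1146 ALN and 261 of 1084 exonerate models ended at the mouse length without it. From MPIMG_talOcc4v2.1 only names and gene order were used. Gene order compared symbols named once in both annotations. Run finding and exon matching were tested on simulated data. Sequences are not analysed here, and 1 gene of the pathway list is not reported here.

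The members, lists and exon runs were chosen with earlier results of these data known. Named with positions were steroid-role genes, runs of at least 3 loci, symbols with most loci, extreme reference intervals, single-exon copies and members on small scaffolds; SULT1C4 copy 2, the SULT1C pairs and the long models were named after their values were seen. The mouse transcript, symbols with 1 locus, reference units, the kept SULT loci and named neighbours were alternatives added after seeing the data.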

Additional observations from a re-analysis of the deposited data

How the results depend on the processing

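Of 39 recounts of totals, shares and medians under other settings, 38 stayed within their limits, which were 1.5 times for counts and the 95% interval for shares and medians, a wide limit at this number of loci. The exception was the share of member symbols with several loci, 8.16% when only loci with at least 50% of the highest score were kept, against 18.4%. That recount drops 2 SULT loci whose scores are not comparable with those of their best loci, and with them kept the share was 12.2%, an alternative chosen after seeing the data. Tandem runs held 18 to 24 loci under 7 settings, against 23. Among single families, 43 of 45 recounts stayed within 1.5 times, and the UGT count was 6 on large scaffolds and 7 with more than 1 exon, against 13. Some recounts among the 39 and the 45 could not move. No member had a low-confidence name, so leaving out such loci changed nothing. Keeping loci with at least 50% of the highest score keeps every best locus, so the number of symbols was fixed. No paired analysis was possible because no library has a value here. Locus counts depend on the symbols given by reference records, and a short gene and an incompletely modelled gene cannot be told apart here.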
